A study of Mus musculus with 12 samples.

Results

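Triglyceride is built from glycerol-3-phosphate by enzymes that act in turn, and 10 genes encoding them were followed in the Ribo-seq table of mouse liver. The genes were the rows of that table carrying the symbols Gpam, Gpat3, Gpat4, Agpat2, Agpat3, Lpin1, Lpin2, Dgat1, Dgat2 and Mogat1, 10 of 25033 rows. The rule used the symbols and no measured value, but the set was drawn up with earlier results of these data known, the change of Lpin1 among them. Glycerol-3-phosphate acyltransferases (GPAT) add the first fatty acid, acylglycerolphosphate acyltransferases (AGPAT) add the second to give phosphatidate, and lipins remove the phosphate to give diacylglycerol. Diacylglycerol acyltransferases (DGAT) then add the last fatty acid, while monoacylglycerol acyltransferases (MGAT) make diacylglycerol by a separate route. In hepatocytes the product is stored in lipid droplets or secreted in very-low-density lipoprotein, and phosphatidate and diacylglycerol are also used to make phospholipids.

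Livers came from male C57BL/6 mice aged 16 weeks that had received their feed from week 8 for 8 weeks. The HFD group received a high-fat feed (45% kcal), and the LYC group received the same feed with lycopene mixed in at 0.33% by weight, with 3 libraries in each group. Lycopene is the red carotenoid of tomato. For LYC the treatment label mentions no lycopene, which is taken from the titles and the methods. The labels state that RNA or footprints of a group were pooled before the libraries were made, while the titles name 3 libraries with separate animal numbers, so p-values measure the spread between these libraries. Livers of mice on standard feed were not analysed here. Ribo-seq reads the pieces of mRNA shielded by ribosomes during nuclease digestion, and the authors deposited an RPKM value for each gene, that is, reads scaled to gene length in kilobases and to library size. In bulk liver, fewer cells of a type and less RNA per cell cannot be told apart.

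Read counts were worked back from RPKM with gene lengths implied by a second deposited table or fitted. What 1 read was worth came from the most common low values of RPKM times length. For 363 of the 5776 genes tested the reads came out with a common factor and were mostly too high, at a median of 1.95 times the matching counts of that second table. Chpt1 and Cept1 have the factor 2 and Cds2 the factor 7. None of the 10 enzymes is among them: the reads of the 7 tested were 0.968 to 0.987 times the matching counts. Library totals were 834410 to 4405541 reads in HFD and 311050 to 412116 reads in LYC, so low genes were measured less well in LYC. The 6 hepatocyte marker genes summed to 37049 to 40628 RPKM in HFD and 26531 to 33710 RPKM in LYC, and 2 of them, Cps1 and Tat, were called higher in LYC. The 6 Kupffer cell markers summed to 126 to 170 RPKM in HFD and 119 to 178 in LYC. The ranges also overlapped for the 5 stellate cell markers (74.5 to 143 and 75.4 to 111 RPKM) and the 4 endothelial markers (50.2 to 69.1 and 10.7 to 99.6 RPKM), and none of those tested (6 Kupffer, 3 stellate and 4 endothelial) was called. The 3 cholangiocyte markers had 32 reads in the deeper HFD libraries and 0 in LYC. They summed to 0.756 to 2.77 RPKM in HFD and 0 in LYC, too few reads for the test. Of the 4 adipocyte markers, Plin1, Lep and Retn had no read in any library, and the list summed to 0 to 0.553 RPKM in HFD and 0 in LYC.

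A second deposited table, labelled RNA-seq, held nearly the same reads as the Ribo-seq table for these enzymes and for most other genes, although the LYC totals differed. Its HFD libraries had 0.965 to 1.09 times and its LYC libraries 1.67 to 1.87 times the reads of the Ribo-seq libraries they follow. The single gene Lars2 held 35.9% to 40.3% of the LYC counts and 6.68% to 15.0% of the HFD counts. Among genes with at least 10 reads in either, 80.7% to 81.7% of the counts of each LYC library labelled RNA-seq lay within 10% of the reads of the Ribo-seq library of the same number. For the 10 enzymes the largest difference was 2, 1 and 1 reads. The HFD columns coincided in another order: the column of replicate 1 followed Ribo-seq HFD2 (80.3% of genes within 10%), that of replicate 2 followed HFD3 (80.9%), and that of replicate 3 followed HFD1 (78.6%). No other pairing of columns exceeded 14.0%. The second table is therefore not an independent readout of the 10 enzymes, and which of the 2 assays the reads came from rests on the labels. Lpin1 gives an example, with 154, 399 and 41 recovered reads in Ribo-seq HFD1, HFD2 and HFD3 against counts of 161, 410 and 43 in the matching columns labelled RNA-seq.

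**Figure D1:**
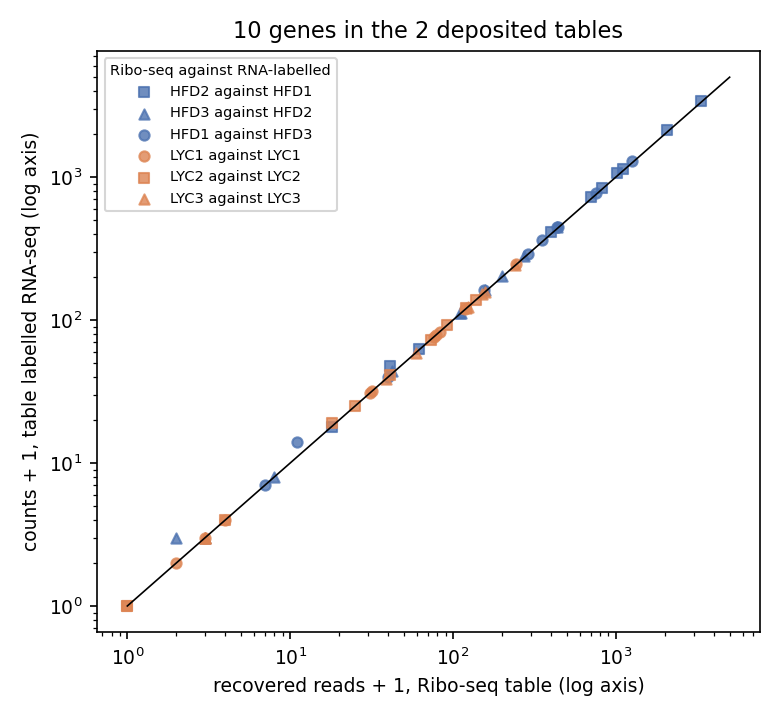
Counts of the 10 genes in the table labelled RNA-seq (y axis, counts + 1, log axis) against the recovered reads of the Ribo-seq table (x axis, reads + 1, log axis), 1 point per gene and library, with each column paired to the library it follows; the line marks equality. The points lie close to the line in all 6 pairs, from genes with no read to the 3329 reads of Gpam in HFD2.

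The comparison asked which steps of triglyceride synthesis differed between mice fed lycopene and mice fed the high-fat feed alone. Levels are RPKM as deposited. Fold changes are LYC against HFD on log2(RPKM / TMM factor + 1), with TMM standing for edgeR's trimmed mean of M-values; these scaling factors were 1.03 to 1.26 in HFD and 0.80 to 1.00 in LYC. The test was limma's moderated test, two-sided, over the 5776 genes with enough reads, and calls needed a log2 fold change beyond 1 in size together with an unadjusted p below 0.01. Adjusted p-values are Benjamini-Hochberg values over all genes tested. A pseudocount of 1 makes the fold change of a low gene too small.

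Both lipin genes and Gpat4 rose in LYC, Agpat2 fell, and Gpam, Agpat3 and Dgat2 had lower means that did not pass the test. Lpin1 changed most, from 11.6 RPKM ± 3.93 in HFD to 94.0 ± 22.2 in LYC (SD, n = 3 per group). Of the 10 genes, 7 had enough reads to be tested; 3 of the 7 were called higher, where 6.99% of all genes tested were, and 1 was called lower, where 6.32% of all genes were. By adjusted p below 0.05 alone the same 3 were higher and the same 1 lower, beside 6.49% and 5.04% of all genes tested. The median log2 fold change of the 7 was -0.33, beside -0.10 over all genes tested. The remaining 3 genes, Gpat3, Dgat1 and Mogat1, were below the filter on low reads. As deposited, the 3 LYC libraries lay above the 3 HFD libraries in 3 tested members (9.87% of all genes tested) and below them in 3 others, Gpam, Agpat2 and Agpat3 (27.5% of all genes tested). After division by the TMM factors the same 6 members separated in the same directions, beside 18.7% and 18.9% of all genes tested.

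**Figure D2:**
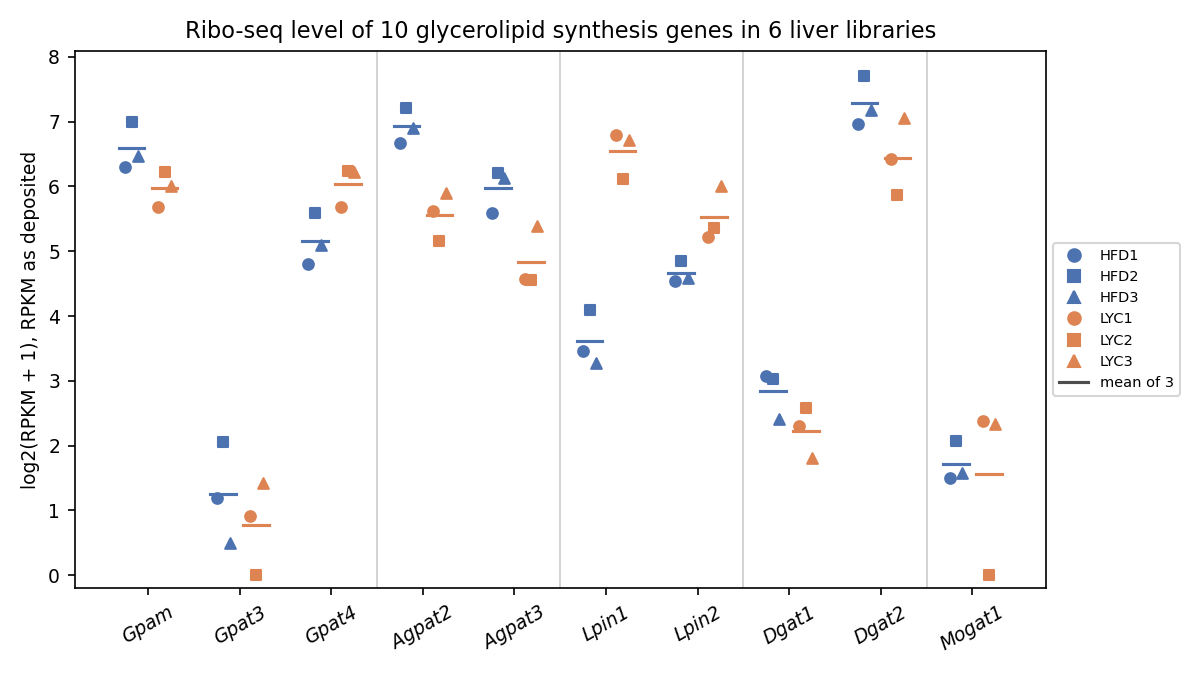
Ribo-seq level of each of the 10 genes (y axis, log2 of the deposited RPKM + 1) in the 3 HFD and 3 LYC libraries, grouped by enzyme step; each point is a library and each short line the mean of 3 log2 values. The LYC libraries lie above the HFD libraries for Gpat4, Lpin1 and Lpin2 and below them for Gpam, Agpat2 and Agpat3.

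In HFD the highest mean was that of Dgat2 at 159 RPKM, followed by Agpat2 at 123, Gpam at 97.4 and Agpat3 at 63.3. Gpat4 followed at 35.7, Lpin2 at 24.4 and Lpin1 at 11.6, with Dgat1 at 6.30, Mogat1 at 2.34 and Gpat3 at 1.62 RPKM. The library ranges of neighbours in this order overlapped except between Gpam and Agpat3, Lpin2 and Lpin1, Lpin1 and Dgat1, and Dgat1 and Mogat1. In LYC the highest means were those of Lpin1 at 94.0 RPKM and Dgat2 at 91.0, whose ranges overlapped. Gpat4 at 66.0 and Gpam at 62.6 came next, then Agpat2 at 47.2, Lpin2 at 46.6 and Agpat3 at 28.7 RPKM. Only Agpat3 and the next gene, Dgat1 at 3.81 RPKM, had ranges that did not overlap in LYC. Among the 5776 genes tested, the mean level of Lpin1 stood at the 42.2 percentile in HFD and at the 88.2 percentile in LYC. RPKM divides by gene length, here 1206 to 5956 bases, and whether untranslated parts were counted is not given in the sources used here.

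The first step is served by Gpam, the mitochondrial acyltransferase, and by Gpat3 and Gpat4, which lie in the endoplasmic reticulum. Gpat4 (chromosome 8, 23171265 to 23208346, GRCm38) had 26.8, 47.3 and 33.1 RPKM in HFD and 50.1, 74.2 and 73.8 in LYC. The groups did not overlap, but the highest HFD and the lowest LYC library were close. Its log2 fold change was 1.17 (standard error 0.25, 95% interval 0.60 to 1.74, adjusted p = 0.0214, limma), on 288, 822 and 109 reads in HFD against 78, 91 and 120 in LYC. Gpat4 was not called when libraries were scaled by total size (0.88) or when HFD1 was left out (1.01), and its adjusted p ran from 8.77e-05 to 0.104 over 20 alternatives. Gpam (chromosome 19, 55067268 to 55127238) had 77.7, 127 and 87.7 RPKM in HFD and 50.2, 73.9 and 63.6 in LYC. Every LYC library of Gpam was below every HFD library, yet the log2 fold change was -0.33 (95% interval -0.84 to 0.19, adjusted p = 0.373, limma).

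Gpat3 (chromosome 5, 100845713 to 100899102) was close to the limit of detection. Its HFD libraries had 10, 40 and 1 reads and its LYC libraries 1, 0 and 2, corresponding to 1.27, 3.16 and 0.417 RPKM and to 0.881, 0 and 1.69 RPKM. A count of 0 in LYC2 allows up to 3.35 RPKM, so a difference was not detectable at this depth (exact permutation test, two-sided, p = 0.5, 3 libraries against 3). Its exons overlap those of an antisense gene and those of another gene model on its own strand. Exons of Agpat3 and Mogat1 also overlap a gene on the other strand. Strand use in the counting is not given in the sources used here.

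Since a share within a library does not depend on the scaling between libraries, each paralog was also expressed as a percent of the RPKM of its step. Gpat4 made up 25.3%, 26.7% and 27.3% of the GPAT step in HFD and 49.5%, 50.1% and 53.1% in LYC. The mean share was 26.4% ± 1.02 in HFD and 50.9% ± 1.92 in LYC (SD, n = 3 per group), a difference of 24.5 percentage points. The groups did not overlap, for which an exact permutation test, two-sided, gives p = 0.1, the smallest that 3 libraries against 3 allow. With each library left out in turn the difference was 23.4 to 25.1 points. In HFD, Gpat4 therefore had 0.339 to 0.376 times the summed level of Gpam and Gpat3, and in LYC 0.981 to 1.13 times.

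The second step adds a fatty acid to lysophosphatidate. Agpat2, whose loss causes congenital lipodystrophy, lies on chromosome 2 from 26593057 to 26604417. It had 101, 148 and 119 RPKM in HFD and 48.3, 34.7 and 58.6 in LYC, on 435, 1023 and 156 reads in HFD against 30, 17 and 38 in LYC. Each LYC library was below each HFD library. The log2 fold change was -1.08 (standard error 0.29, 95% interval -1.73 to -0.43, adjusted p = 0.0444, limma). This call was just past the fold limit and was lost without HFD2 (-1.10), HFD3 (-1.08) or LYC2 (-0.81), with an adjusted p of 0.00527 to 0.149 over the alternatives. An exon of Egfl7 on the other strand overlaps Agpat2. Egfl7 had 36, 29 and 8 reads in HFD against 1, 0 and 3 in LYC. These are 9.70, 4.83 and 7.04 RPKM against 1.86, 0 and 5.34, so its groups overlapped.

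Agpat3 (chromosome 10, 78269178 to 78352489) had 47.3, 73.2 and 69.3 RPKM in HFD and 22.9, 22.4 and 40.9 in LYC. The groups did not overlap, with LYC3 the closest to HFD. Its log2 fold change was -0.85 (95% interval -1.56 to -0.14, adjusted p = 0.113, limma), and it was called lower without LYC3 (-1.14) and under scaling by total size (-1.14). The mix of the pair differed little. Agpat2 took 66.1% ± 2.62 of the summed AGPAT level in HFD and 62.5% ± 4.76 in LYC (SD, n = 3 per group), and the groups overlapped (exact permutation test, two-sided, p = 0.3).

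Lipins convert phosphatidate to diacylglycerol and also act in the nucleus as coregulators of transcription, and lipin 1 is known to be induced by fasting and glucocorticoids. Lpin1 (chromosome 12, 16535669 to 16610966) had 10.0, 16.1 and 8.73 RPKM in HFD and 109, 68.6 and 104 in LYC. The lowest LYC library was above the highest HFD library by a wide margin. Its log2 fold change was 3.21 (standard error 0.32, 95% interval 2.48 to 3.94, adjusted p = 0.000714, limma). Of the 5776 genes tested, 48 had a larger log2 fold change, 8 of them other than small non-coding RNA genes. Lpin1 was called under all 20 alternatives, with log2 fold changes of 2.93 to 3.49 and adjusted p of 1.81e-22 to 0.00786. It is the only one of the 10 genes with as many recovered reads in the shallow LYC libraries, 604 in all, as in the deep HFD libraries, 594.

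Lpin2 (chromosome 17, 71182560 to 71249817), the other lipin abundant in liver, had 22.3, 27.9 and 23.1 RPKM in HFD and 36.1, 40.2 and 63.3 in LYC. All LYC libraries were above the HFD libraries, and LYC3 stood apart from the other two. The log2 fold change was 1.15 (standard error 0.28, 95% interval 0.53 to 1.78, adjusted p = 0.0314, limma). The call depended on single libraries: it was lost without HFD1 (1.11), HFD2 (1.09), HFD3 (1.13) or LYC3 (0.91), and also under scaling by total size (0.87). Its adjusted p ran from 0.000115 to 0.128 over the alternatives.

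The balance of the lipins changed order. Lpin1 took 31.1%, 36.6% and 27.4% of the summed lipin level in HFD and 75.2%, 63.0% and 62.2% in LYC. Lpin2 was thus the more abundant lipin in every HFD library and Lpin1 in every LYC library. The mean share of Lpin1 was 31.7% ± 4.62 in HFD and 66.8% ± 7.29 in LYC (SD, n = 3 per group), a difference of 35.1 points (exact permutation test, two-sided, p = 0.1, the smallest possible). Leaving out each library in turn gave 30.9 to 37.5 points. Lpin3, the remaining paralog, had 8, 10 and 4 reads in HFD against 0, 0 and 1 in LYC, and adding it gave 35.8 points.

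As both lipin genes were called higher, the bases before their annotated starts are shown, from RefSeq's table of GRCm38.p6, which held 7 of the 10 genes and did not list Gpat4. Capitals mark matches, on either strand, to an E-box (CACGTG), a nuclear receptor half-site (AGGTCA), a cyclic AMP response element (TGACGTCA), a GC box (GGGCGG) or a CCAAT box (CCAAT), letters chosen with the sequences in view. Each window has 250 bases, runs 5′ to 3′ on the gene's own strand and holds no exon annotated in GENCODE. Exons of RefSeq were not checked. Both windows lie within an outer gene model, that of Lpin1 in RefSeq and that of Lpin2 in GENCODE, which begins at 71182560. Lpin1 is on the minus strand at chr12:16610967-16611216, and the first of 3 listed starts of Lpin2 is on the plus strand at chr17:71183282-71183531.
Lpin1: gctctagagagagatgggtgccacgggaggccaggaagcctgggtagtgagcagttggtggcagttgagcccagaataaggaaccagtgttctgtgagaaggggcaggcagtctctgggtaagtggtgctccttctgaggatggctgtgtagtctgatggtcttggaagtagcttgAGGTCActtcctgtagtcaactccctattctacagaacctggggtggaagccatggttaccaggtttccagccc
Lpin2: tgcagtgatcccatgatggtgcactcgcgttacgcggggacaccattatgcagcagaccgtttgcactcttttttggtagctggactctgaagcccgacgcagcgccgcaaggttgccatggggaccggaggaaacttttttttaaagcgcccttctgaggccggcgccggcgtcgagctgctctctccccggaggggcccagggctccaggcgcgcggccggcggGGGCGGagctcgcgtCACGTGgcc

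The Lpin1 window held 1 half-site, from 74 to 69 bases before the start, and the Lpin2 window held 1 GC box, from 24 to 19 bases before it, and 1 E-box, from 9 to 4 bases before it. These windows shared none of the 5 motifs. Of the other Lpin2 starts, the second had 1 GC box and the third had 3 CCAAT boxes. Among 32851 windows of the same length in the table, 14.0% held the half-site letters, 6.02% the E-box, 32.7% the GC box, 33.9% the CCAAT box and 1.55% the cyclic AMP response element. A match of letters is a description and not evidence of binding.

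The last step is carried out by Dgat1 and Dgat2, which are unrelated in sequence. Dgat2 (chromosome 7, 99153658 to 99182719) had 123, 208 and 144 RPKM in HFD and 84.5, 57.1 and 132 in LYC. The groups overlapped because LYC3 was above HFD1. The log2 fold change was -0.55 (95% interval -1.33 to 0.24, adjusted p = 0.324, limma), and the interval leaves room for both a fall of more than 2-fold and a small rise. Without LYC2 the value was -0.19, and without LYC3 it was -0.86; neither was called.

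Dgat1 (chromosome 15, 76502015 to 76511953) was much lower than Dgat2 in every library. Its HFD libraries had 39, 61 and 7 reads and its LYC libraries 3, 3 and 2, or 7.40, 7.16 and 4.34 RPKM and 3.93, 4.99 and 2.51 RPKM. The groups overlapped (exact permutation test, two-sided, p = 0.2). Dgat2 accounted for 96.0% ± 1.48 of the summed DGAT level in HFD and 95.2% ± 3.09 in LYC (SD, n = 3 per group), again with overlap (exact permutation test, two-sided, p = 0.7). Mogat1 (chromosome 1, 78510991 to 78538173), an enzyme of the monoacylglycerol route that is usually low in normal liver, had 6, 17 and 2 reads in HFD against 2, 0 and 2 in LYC. These correspond to 1.82, 3.20 and 1.99 RPKM and to 4.20, 0 and 4.02 RPKM. The floor of 3 reads in LYC2 is 8.00 RPKM, above every other value, so Mogat1 could not be compared at this depth (exact permutation test, two-sided, p = 0.8, 3 libraries against 3).

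The summed level of the 10 genes and its division among the steps were computed after the single values were seen, so they are given as a description. The sum was 419, 661 and 492 RPKM in HFD and 411, 376 and 544 in LYC. These ranges overlapped, with means of 524 ± 124 and 444 ± 88.5 RPKM, and of 467 ± 61.1 and 494 ± 111 after division by the TMM factors (SD, n = 3 per group). The composition of the sum differed. Lipins held 7.70%, 6.66% and 6.48% of it in HFD and 35.5%, 28.9% and 30.7% in LYC. The AGPAT pair held 35.4%, 33.4% and 38.2% in HFD and 17.3%, 15.2% and 18.3% in LYC, and the DGAT pair 30.2% to 32.6% in HFD and 16.5% to 24.6% in LYC. The groups did not overlap for any of these steps. Shares of a closed sum must fall somewhere when the lipins rise, and the summed DGAT level itself overlapped, at 165 ± 44.6 RPKM in HFD and 94.8 ± 36.4 in LYC. With the lipins left out of the sum the DGAT share overlapped as well (33.8%, 34.9% and 32.3% against 33.4%, 23.2% and 35.6%). The AGPAT share was then still lower in all LYC libraries (35.8% to 40.9% against 21.4% to 26.9%), and the GPAT share was higher in all of them (26.4% to 28.8% against 36.9% to 55.4%). The same caution holds for these shares: the summed GPAT level itself overlapped, at 135 ± 37.6 RPKM in HFD and 129 ± 24.9 in LYC, while the AGPAT sum was 186 ± 36.1 and 75.9 ± 21.6 RPKM. The GPAT step held 24.7% to 26.8% in HFD and 24.7% to 39.4% in LYC, with LYC2 above the other libraries.

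**Figure D3:**
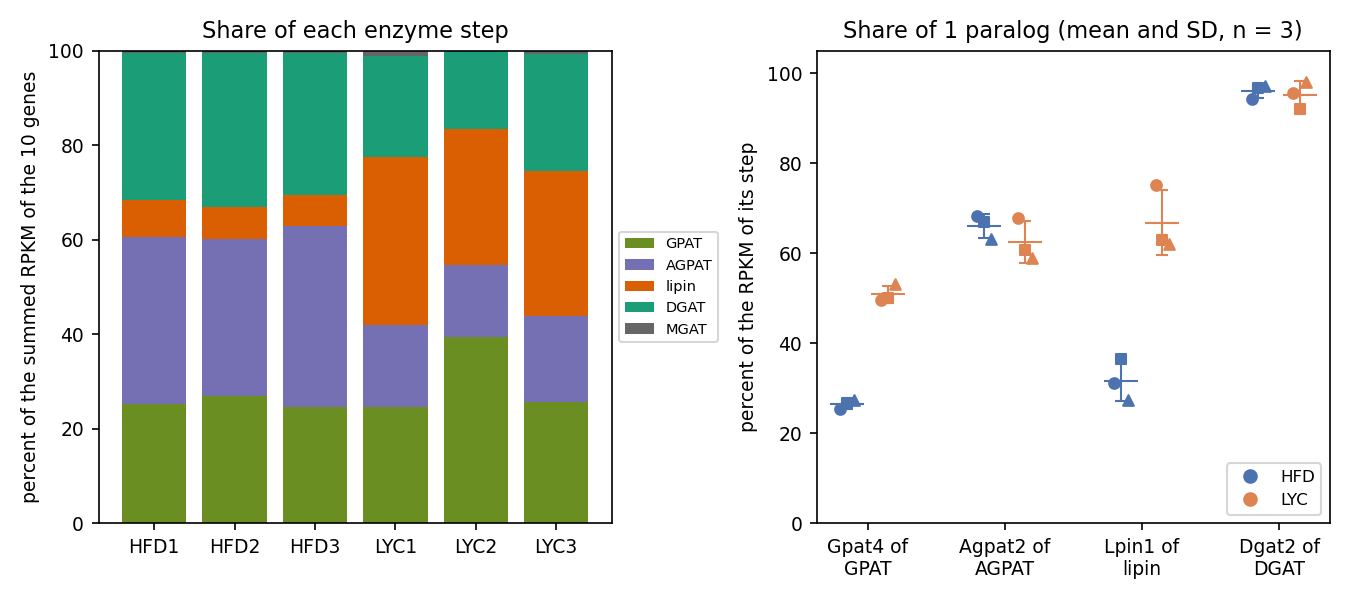
Left, the share of each enzyme step in the summed RPKM of the 10 genes (y axis, percent) in each library. Right, the share of 1 paralog in the RPKM of its step (y axis, percent), with points for libraries and the mean with its SD (n = 3); the shares of Gpat4 and Lpin1 separate HFD from LYC, and those of Agpat2 and Dgat2 overlap.

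The other genes of the pathway were represented by 28 genes: further paralogs, enzymes that supply glycerol-3-phosphate, enzymes that use or make phosphatidate and diacylglycerol, and the phosphatase complex that acts on lipins. Of the 28 genes, 13 were tested and 0 were called in either direction, by limma, by edgeR and by DESeq2, where limma called 13.3% of all genes tested in either direction, so that few calls would be met among any 13 genes; 2 had an unadjusted p below 0.05 in limma, where 29.9% of all genes tested did. Log2 fold changes ran from -0.79 to 0.84, with 7 above and 6 below 0 and a median of 0.03. The 2 genes were Gpd2, the mitochondrial glycerol-3-phosphate dehydrogenase, at 0.84 (95% interval 0.01 to 1.68, adjusted p = 0.165, limma), and Lclat1, an acyltransferase of cardiolipin remodelling, at -0.79 (95% interval -1.57 to -0.01, adjusted p = 0.162, limma). Gpd2 was called higher without LYC3 (1.16), where Dgka (1.73) was as well, and Plpp2 was called lower without LYC1 (-2.62); Dgka and Plpp2 were below the filter with all libraries in.

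Values follow for genes of glycerol-3-phosphate supply, of the branches to phospholipid and of the lipin phosphatase. Gpd1, the cytosolic glycerol-3-phosphate dehydrogenase, had 145 ± 34.6 and 133 ± 31.8 RPKM in HFD and LYC (SD, n = 3 per group), with a log2 fold change of 0.17 (95% interval -0.37 to 0.71). Gk, glycerol kinase, had 32.4 ± 7.79 and 33.3 ± 6.20 RPKM, a log2 fold change of 0.34 (95% interval -0.25 to 0.92). Chpt1, which turns diacylglycerol into phosphatidylcholine, had 116 ± 25.6 and 98.0 ± 19.2 RPKM, a log2 fold change of 0.06 (95% interval -0.47 to 0.59). Cds2, which turns phosphatidate into CDP-diacylglycerol, had 99.4 ± 19.7 and 59.8 ± 29.9 RPKM, a log2 fold change of -0.53 (95% interval -1.27 to 0.22). Ctdnep1, the catalytic subunit of the phosphatase that activates lipins, had 12.8 ± 2.60 and 8.97 ± 1.28 RPKM, a log2 fold change of -0.19 (95% interval -0.84 to 0.47). Its partner subunit Cnep1r1 was below the filter, with 29, 41 and 13 reads in HFD against 2, 0 and 2 in LYC. That is 5.81, 5.08 and 8.50 RPKM and then 2.77, 0 and 2.65, so that all LYC libraries were lower (exact permutation test, two-sided, p = 0.1, the smallest possible), although the floor of 3 reads in LYC2 is 5.26 RPKM.

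Several paralogs outside the 10 genes were low in both groups. Agpat1 had 13, 42 and 7 reads in HFD against 1, 0 and 0 in LYC, Agpat5 had 22, 17 and 6 and then 1, 0 and 4, and Agpat4 had 6, 4 and 1 reads in HFD and none in LYC. None had enough reads for the test. Including them left Agpat2 with 63.9% of the AGPAT level in HFD and 61.4% in LYC.

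**Figure D4:**
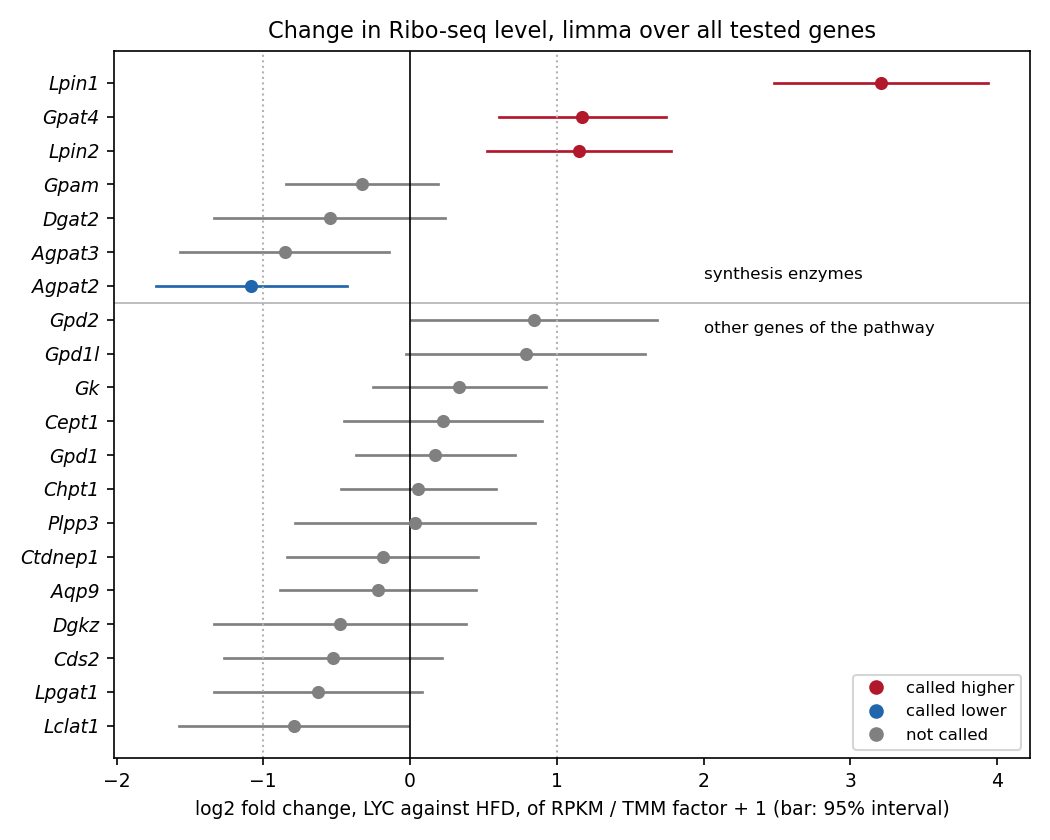
Log2 fold change of LYC against HFD (x axis, on RPKM / TMM factor + 1) with its 95% interval from limma for the 7 tested synthesis enzymes and the 13 tested other genes of the pathway; dotted lines mark the fold limit. Lpin1, Gpat4 and Lpin2 were called higher and Agpat2 lower, and none of the 13 other genes was called.

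The tested genes whose profile over the 6 libraries lay nearest to that of Lpin1, by Euclidean distance on centred log2 values with the other enzymes left out, were Snora81, Snord16a, Hspa1b, Mir30d and Mir1839, at distances of 0.68 to 0.86. Of these, 4 are genes of small non-coding RNA and 1 encodes a heat shock protein of the HSP70 family. The level of Hspa1b was 4.17 RPKM ± 1.13 in HFD against 29.9 ± 4.77 in LYC (SD, n = 3 per group), and its log2 fold change was 2.85 (adjusted p = 0.00121, limma); it has a near-identical copy, Hspa1a, so its reads may be split between the copies. The 6 libraries form 2 groups, so a gene with a like difference between the groups scores as near.

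**Figure D5:**
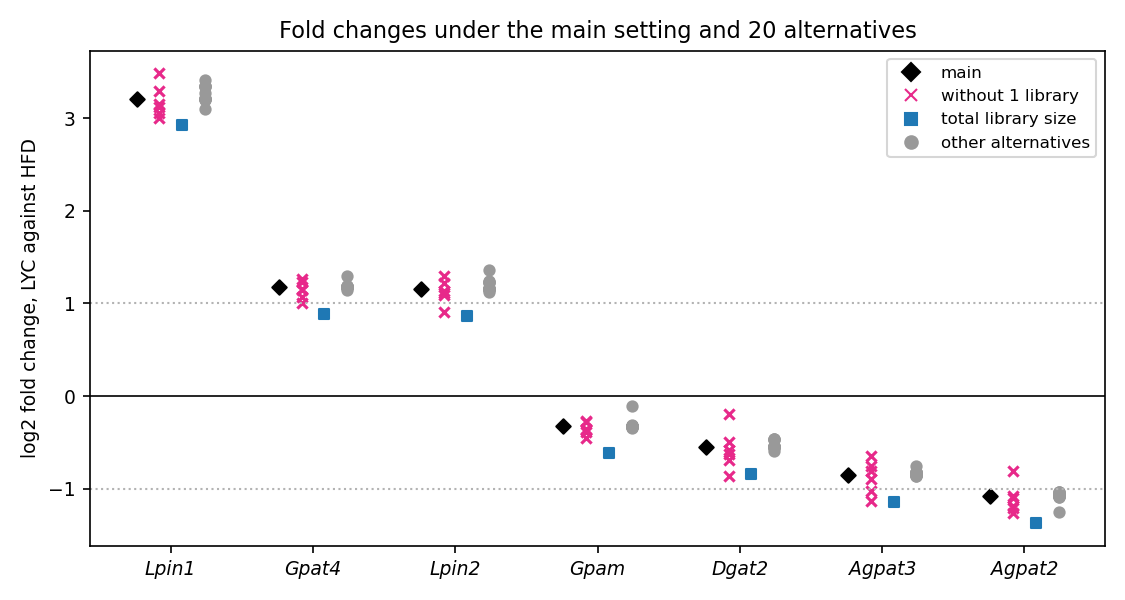
Log2 fold change (y axis, LYC against HFD) of the 7 tested enzymes under the main setting and 20 alternatives, with fits that leave out 1 library and the fit scaled by total library size marked apart; dotted lines mark the fold limit. Each gene keeps its sign, and Lpin1 lies between 2.93 and 3.49. Gpat4, Lpin2 and Agpat2 lie close to the fold limit, as does Agpat3, not called in the main setting, at -1.14 to -0.64.

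The genes of the table labelled RNA-seq were fitted apart with edgeR's quasi-likelihood test on its counts. Of the 7 enzymes tested there, 3 were called higher and 1 lower, where 9.31% and 7.33% of all 5921 genes tested were. Lpin1 had a log2 fold change of 3.34, Lpin2 of 1.24, Gpat4 of 1.21 and Agpat2 of -1.03. As the counts of these genes nearly coincide with the Ribo-seq reads, these values are no second measurement.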

How the data were processed

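Per the study's methods, clean reads were mapped by the authors to mouse GRCm38/mm10 (STAR) and genes were quantified with FANSE2; raw reads had been cleaned with cutadapt and Bowtie2. Versions, annotation and filters are not given in the sources used here. The authors deposited RPKM values for the Ribo-seq libraries, and read counts with RPKM values for the libraries labelled RNA-seq, whose count and RPKM gave the gene lengths. Reads behind the Ribo-seq RPKM were recovered with those lengths for 11129 genes and with a fitted whole length for 4620 (Gpam, Lpin1 and Lpin2 among them), chosen nearest to the implied one; 4 rows sharing a name were left out. The recovery and the limma, edgeR and DESeq2 fits were tested on simulated data. Because the deposited unit is RPKM, limma (trend, pseudocount 1) was the main test, and tests on reads were alternatives. Gene filtering used edgeR's filterByExpr. The fold and p limits follow the study's results section; its methods section gives a p limit of 0.001, which was an alternative. Shares and genes under the filter were compared by exact permutation tests. The 10 enzymes, the pathway list and the marker list were chosen with earlier results of these data known. Named genes were the enzymes, pathway genes called or describing a step, and the 5 genes nearest to Lpin1; genes named outside this rule were chosen after their values were seen (Agpat1, Agpat4, Agpat5, Cnep1r1, Egfl7, Lars2, Plpp2 and Dgka among them). Intervals cover the spread between libraries. Gene positions come from GENCODE M21 (GRCm38). Alternatives were other scalings, pseudocounts, filters, tests and limits, a replicate block, removal of a trend on gene length, leaving out each library and, added after seeing the data, division of the reads of genes with a fitted length by their common factor. The versions were DESeq2 1.42.0, edgeR 4.0.16 and limma 3.58.1 in R 4.3.3, and pandas 2.3.3, numpy 2.4.6, scipy 1.17.1 and matplotlib 3.10.9 in Python 3.11.15.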

Additional observations from a re-analysis of the deposited data

How the results depend on the processing

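Each of the 7 tested enzymes kept its direction under all 20 alternatives. Against 3 enzymes called higher and 1 lower, scaling by total library size called 1 higher (Lpin1) and 2 lower (Agpat2 and Agpat3); over all genes it moved the median from -0.10 to -0.36 (log2), and the calls over all genes from 404 higher and 365 lower to 235 and 651. An unadjusted p limit of 0.001, the limit in the study's methods section, left 1 higher (Lpin1) and 0 lower, beside 196 higher and 101 lower of all 5776 genes. Leaving out each library in turn gave 1 to 3 higher and 0 to 2 lower enzymes, 0 to 2 higher and 0 to 1 lower among the other pathway genes, and 2 to 3 higher and 0 to 2 lower enzymes in the table labelled RNA-seq. The calls over all genes moved too in those Ribo-seq fits, to 268 to 574 higher and 143 to 707 lower of 4710 to 7285 genes tested; the cause was not tested. A filter of at least 10 reads in every library tested 2507 genes and called 340 higher and 82 lower, and no filter tested 15749 and called 443 and 710. Removing each library's trend on gene length moved Gpam from -0.33 to -0.11 and scaling by total library size moved it to -0.62, called in neither. Without LYC2 the difference in the share of Dgat2 turned from -0.82 to 0.81 points (range -2.27 to 0.81 over the libraries), and that of the GPAT step in the summed level from 4.29 to -0.46 points (range -0.46 to 6.90); leaving out libraries or the lipins for the step shares was chosen after seeing the data. The differences in the other shares kept their sign: 23.4 to 25.1 points for Gpat4, 30.9 to 37.5 for Lpin1 and -6.25 to -1.74 for Agpat2. Dividing fitted reads by their common factor, an alternative added after seeing the data, tested 5656 genes and called the same numbers of enzymes, 3 higher and 1 lower, and 0 other pathway genes, by limma, edgeR and DESeq2, beside 395, 493 and 515 higher and 368, 407 and 387 lower of all genes. With pseudocount 0.5, 4 of the 5 genes nearest to Lpin1 remained.

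The replicate block, with the replicate number of the labels as a term, again called 3 enzymes higher and 1 lower, and 397 higher and 340 lower genes in all. Deviations of same-numbered HFD and LYC libraries correlated at 0.11, 0.03 and 0.01. With 3 libraries per group, such values cannot show whether same-numbered libraries shared a batch. The HFD columns of the table labelled RNA-seq also followed another order of replicates, which leaves the HFD numbers in doubt. The LYC libraries were the shallower, and Gpat3, Dgat1 and Mogat1 had 3, 8 and 4 reads over the 3 LYC libraries together. With no filter on low genes all 10 enzymes were tested, and none of these 3 was called. At this depth Gpat3 and Mogat1 cannot be compared, and for Dgat1 only a large difference could have been detected.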
